A study of Mus musculus with 288 samples.

Results

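The genes described here are those of the proteasome, chosen by symbol: Psma, Psmb, Psmc, Psmd, Psme, Psmf or Psmg followed by a digit, and listed in the count tables of both genotypes of a tissue. The rule found 49 genes in liver, 48 in white adipose tissue and 48 in lung, 49 different symbols in all, of 16825 symbols listed in any table. Bulk RNA-seq covered whole liver, white adipose tissue (called fat or white fat here) and lung. The C57BL/6 mice were 3 months old and lived in 12 h light, 12 h dark cycles. BLKO mice carried Alb-Cre, which is Cre recombinase under the albumin promoter and is active in hepatocytes, together with floxed Bmal1 (gene symbol Arntl), which encodes a transcription factor of the circadian clock. Alb-Cre mice, the controls, carried the same Cre, so all mice share it, and Bmal1 was targeted in hepatocytes and not in fat or lung cells. Mice of both genotypes were fed either only in the light phase (daytime-fed, DF) or ad libitum (AL) for 30 days. There were 12 groups by tissue, genotype and regimen, with 24 libraries in each, a pair (letters A and B) every 2 h over 0 to 22 h. How hour 0 relates to lights on is not given, and hours below are as labelled. No label names an animal, so every p-value reflects variation between libraries, which may be technical.

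The proteasome degrades proteins that carry ubiquitin chains. Its core particle is a barrel of alpha subunits (Psma1 to Psma7), which gate the channel, and beta subunits (Psmb1 to Psmb7), of which Psmb5, Psmb6 and Psmb7 carry the cutting sites. Regulatory particles cap the barrel: the ATPases Psmc1 to Psmc6 unfold and thread the substrate, and the Psmd subunits bind ubiquitin or support the lid and base. Cells exposed to interferon exchange the cutting subunits for Psmb8, Psmb9 and Psmb10, the immunoproteasome, whose products feed antigen presentation, and Psme1 and Psme2 form the PA28 activator that often accompanies it. Liver takes up dietary amino acids and turns over much protein, and a meal changes protein breakdown there within hours. The genes were read in 2 groups, the 31 subunits of the constitutive 26S proteasome (14 of the core particle and 17 of the regulatory particle) and the 3 immunoproteasome subunits. The others are 7 assembly chaperones, the activators Psme1 to Psme4, the inhibitor Psmf1, the testis alpha subunit Psma8, and 2 genes that fit the symbol rule but stand outside the particle, Psmc3ip, a recombination factor, and Psme2b, a close copy of Psme2 whose reads cannot be assigned with certainty.

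Median library size was 3747692 counts for liver, 3350924 for fat and 2584568 for lung, and the median gene of the family had a median of 280 counts per library in Alb-Cre AL liver, 378 in fat and 173 in lung. All but 3 entries passed the filter on low counts: 47 genes were tested in liver (not Psma8 and Psmc3ip), 47 in fat (not Psmd9) and 48 in lung, and all 31 subunits and all 3 immunoproteasome genes were tested in every tissue. Arntl itself was not lower in BLKO liver: its library-scaled counts (CPM, the count scaled to library size) were 6.22 to 14.4 in BLKO DF liver and 7.53 to 15.3 in BLKO AL liver, against 0.376 to 18.1 in Alb-Cre DF liver and 0 to 24.8 in Alb-Cre AL liver. Its 24 h rhythm was called in both Alb-Cre groups and in neither BLKO group (adjusted p = 0.79 in BLKO DF and 0.51 in BLKO AL liver); gene-level counts do not check the deleted part. Correlation with the other libraries of the group, or immune markers, set 8 of the 288 libraries apart, and results that change without them are given with and without them.

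In the liver of Alb-Cre mice, the daily rhythm differed between DF and AL for 13 of the 31 subunits, most of them in the regulatory particle, where 28.8% of all genes differed. Only Psmd1, Psmd3, Psmd11 and Psmb4 were rhythmic in both regimens. Of these, Psmd1, Psmd3 and Psmd11 peaked later under DF. The fitted peak of Psmb4 was earlier under DF, but Psmb4 was not among the 13 subunits whose rhythm differed. For the mean level over the day, 1 of the 31 subunits passed the test. The fitted peaks of 23 of the 31 subunits lay between 10 and 16 h in DF liver, whereas the window of 6 h (starting on a whole hour) that held most of them in AL liver, 2 to 8 h, held 15. The same windows held 23.4% of all tested genes in DF liver and 26.7% in AL liver. The windows were chosen after the peaks were seen and describe them only.

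Psmd11, a subunit of the regulatory lid, changed the most. It had 32.3, 46.8 and 59.7 CPM as its lowest, median and highest value over the 24 DF libraries, and 33.3, 50.6 and 79.5 CPM in AL liver. At 14 h the DF libraries had 47.3 and 59.7 CPM, and at 2 h 33.4 and 37.7 CPM. In AL liver the order over the day was the other way, with 58.5 and 79.5 CPM at 4 h and 34.8 and 38.4 CPM at 16 h. Single hours given here and below were picked after the values were seen and describe them only. The fitted peak-to-trough difference (of a 24 h cosine, on the log2 CPM scale) was 0.40 ± 0.11 with the peak at 12.4 h in DF liver (adjusted p = 0.033) and 0.64 ± 0.11 with the peak at 2.0 h in AL liver (adjusted p = 8.3e-05; SE, 24 libraries each). The test of the difference in rhythm gave an adjusted p of 4.2e-06, and Psmd11 stayed called in all 22 alternatives run, with a highest adjusted p of 0.033.

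Psmd4, a ubiquitin receptor of the regulatory particle, had 121, 156 and 191 CPM (lowest, median, highest) in DF liver and 113, 168 and 243 CPM in AL liver. Its DF libraries were highest at 14 h, with 183 and 191 CPM, and low at 4 h, with 121 and 141 CPM. At 4 h the AL libraries had 194 and 243 CPM, and at 18 h 113 and 157 CPM. The 4 h libraries were thus low in DF liver and high in AL liver. The peak-to-trough difference was 0.24 ± 0.09 in DF liver, which did not pass the test (adjusted p = 0.13), and 0.48 ± 0.09 with a peak at 4.8 h in AL liver (adjusted p = 0.00031); the rhythms differed with an adjusted p of 7.1e-05.

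The promoters of both genes are shown because they hold the same short motif and the rhythm of both genes differed between the regimens. The sequences run from 250 bases before to 50 bases after the annotated start, 5′ to 3′ on the gene's strand, from RefSeq on GRCm38.p6, and capitals mark CCGGAAG or its reverse complement, the core of sites bound by ETS family factors. Psmd11 lies at chr11:80428365-80428664 on the plus strand and Psmd4 at chr3:95042565-95042864 on the minus strand.
Psmd11: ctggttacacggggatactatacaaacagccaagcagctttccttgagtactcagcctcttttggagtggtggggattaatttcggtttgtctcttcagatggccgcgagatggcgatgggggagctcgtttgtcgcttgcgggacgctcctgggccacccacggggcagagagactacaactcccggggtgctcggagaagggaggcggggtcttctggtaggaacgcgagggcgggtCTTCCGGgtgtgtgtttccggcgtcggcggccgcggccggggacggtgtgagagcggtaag
Psmd4: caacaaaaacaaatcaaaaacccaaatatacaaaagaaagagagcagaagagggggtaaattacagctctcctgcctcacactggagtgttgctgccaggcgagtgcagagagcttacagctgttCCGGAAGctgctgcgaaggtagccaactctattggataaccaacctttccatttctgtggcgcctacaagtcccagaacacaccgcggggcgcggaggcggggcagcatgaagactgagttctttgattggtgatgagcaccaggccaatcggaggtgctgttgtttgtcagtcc
Searched on both strands, CCGGAAG was in the promoter of 15 of the 41 genes of the family with an entry (36.6%), among them Psmd2, Psmd13, Psmc2 and Psmd6, against 8.86% of 32851 mouse promoters. Psmd3, Psmd1, Psmc4 and Psmb3, whose rhythms also differed between the regimens in Alb-Cre liver, were not among the 15. Psma6, Psmc1, Psmd12 and Psmd6 were among them, and their rhythms were not called as different. Whether the motif goes with the change in rhythm was not tested. CACGTG, the E-box motif of clock factors, was in 4 of the 41 (9.76%), against 7.15% of all promoters, and TGACNNNGC, the antioxidant response element to which Nfe2l1 (NRF1), the inducer of proteasome genes, binds, was in 6 (14.6%), against 12.4%. The core of the interferon-stimulated response element was in 5 (12.2%), against 3.44%. A family gene was counted if any of its promoters matched (44 promoters for the 41 genes), while the shares of all are per promoter, so the units differ. The motifs were chosen with the results known, no motif here contains another, and a match is a description of the letters in this window.

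**Figure D1:**
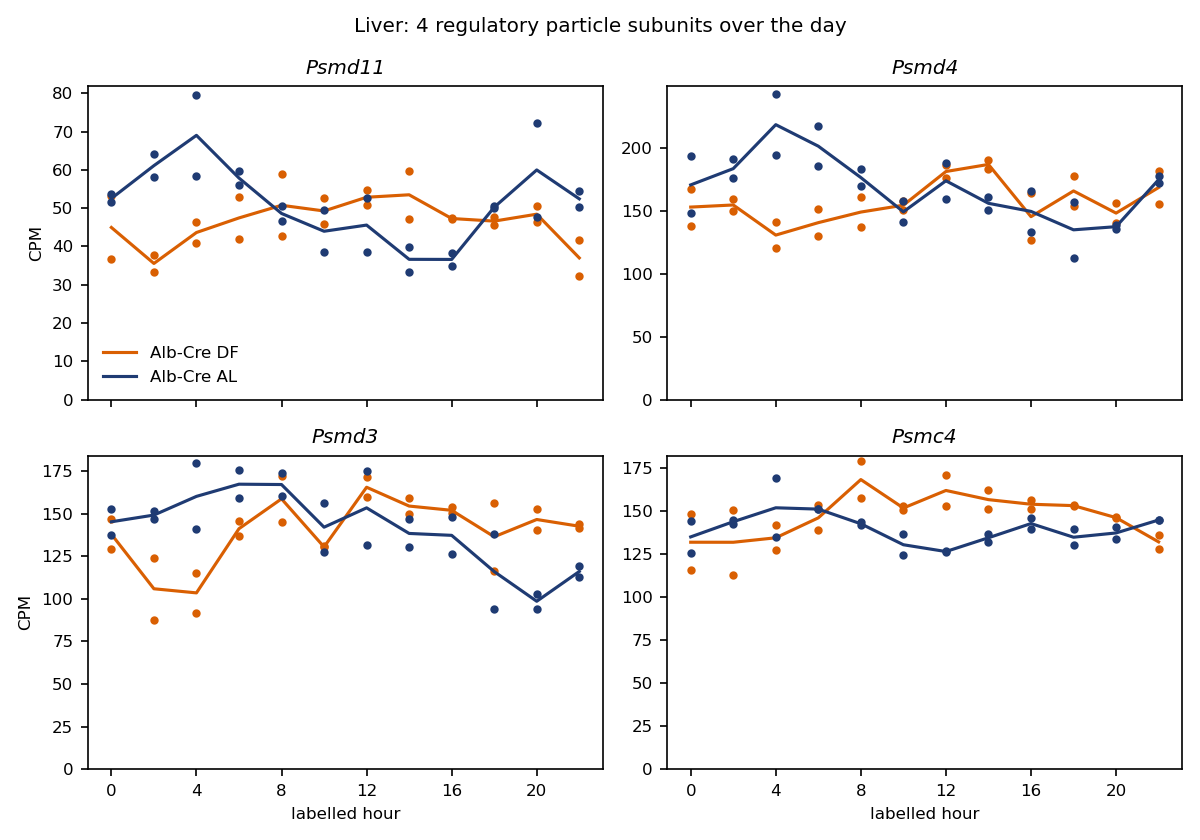
CPM of 4 regulatory particle genes (vertical axes, from 0) against the labelled hour in the liver of Alb-Cre mice, daytime-fed (DF) and ad libitum (AL); points are libraries, 2 per hour, and lines their means. Psmd11 and Psmd4 are low in DF and high in AL libraries at 2 to 4 h, and Psmd11 had 47.3 and 59.7 CPM in DF libraries at 14 h.

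Psmd3, a scaffold subunit of the lid, had 87.7, 145 and 172 CPM (lowest, median, highest) in DF liver and 93.9, 144 and 180 CPM in AL liver. In DF liver it had 160 and 171 CPM at 12 h and 91.7 and 115 CPM at 4 h, and in AL liver 159 and 176 CPM at 6 h and 94.2 and 103 CPM at 20 h. Its peak was at 14.3 h in DF liver and at 7.1 h in AL liver, with peak-to-trough differences of 0.40 ± 0.11 and 0.55 ± 0.11, and the rhythms differed with an adjusted p of 0.00071. Psmd1, the scaffold of the base, had 193 and 203 CPM at 12 h and 143 and 149 CPM at 4 h in DF liver. In AL liver it had 197 and 206 CPM at 6 h and 152 and 179 CPM at 14 h. Its peak was at 11.3 h in DF liver (peak-to-trough 0.32 ± 0.05, adjusted p = 0.00016) and at 5.7 h in AL liver (0.19 ± 0.05, adjusted p = 0.046). Psmc4, an ATPase of the base, was rhythmic in DF liver, with a peak at 12.4 h (0.30 ± 0.06, adjusted p = 0.0028), and its rhythm was not called in AL liver (0.14, adjusted p = 0.30).

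Of the 31 subunits, 13 (41.9%) had a rhythm that differed between DF and AL in Alb-Cre liver, where 28.8% of all tested genes did. They were 10 of the 17 regulatory particle subunits and 3 of the 14 core particle subunits; whether these shares differ was not tested. The other regulatory genes called were the ubiquitin and shuttle factor receptor Psmd2 (adjusted p = 0.0060), the lid subunits Psmd7 (0.016) and Psmd13 (0.027), the ATPase Psmc2 (0.031) and the deubiquitinase Psmd14 (0.043). The core genes called were Psmb3 (0.0017), Psma5 (0.029) and Psma1 (0.039). None of the cutting subunits was among them: Psmb5 had 63.0, 86.0 and 99.8 CPM in DF liver and 70.9, 83.5 and 101 CPM in AL liver, with peak-to-trough differences of 0.17 ± 0.08 and 0.09 ± 0.08, and the adjusted p of the difference in rhythm was 0.74 for Psmb5, 0.83 for Psmb6 and 0.57 for Psmb7. Without the libraries of 2 h the count was 8 instead of 13, and other single hours left it between 9 and 14. With 1 library per hour it was 1 (letter B alone) or 8 (letter A alone).

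Rhythm within each group was called for 8 of the 31 subunits in Alb-Cre DF liver (25.8%, against 19.7% of all genes) and 9 in Alb-Cre AL liver (29%, against 17.6% of all genes). The median peak-to-trough difference of the subunits was 0.19 in DF and 0.24 in AL liver, below the 0.31 of all tested genes in both. Without single hours the DF count fell to between 4 (without 12 h) and 5 (without 2, 4 or 22 h). Psmd1, Psmd3, Psmd11 and Psmb4 were rhythmic in both regimens. Without the libraries set apart Psmd1 did not pass in AL liver (adjusted p = 0.14). The fitted peaks of Psmd1, Psmd3 and Psmd11 were 5.63, 7.17 and 10.4 h later in DF than in AL liver. The fitted peak of Psmb4, a structural beta subunit, was 3.60 h earlier in DF than in AL liver, where it lay at 14.6 h. The test of the difference in rhythm did not call Psmb4, so its shift is not shown. The widest swing of any subunit in AL liver was that of the ATPase gene Psmc6 (0.68 ± 0.18, peak at 1.0 h, adjusted p = 0.0063), a gene of low level with 4.16, 8.30 and 11.2 CPM in DF and 5.88, 8.23 and 15.4 CPM in AL liver. The narrowest in AL liver was that of the ATPase gene Psmc1, at 0.05. Psmd9, an assembly chaperone, peaked against the subunits, at 0.4 h in DF liver (0.80 ± 0.25, adjusted p = 0.048), at median levels of 5.51 CPM in DF and 4.70 CPM in AL liver, about 17 counts per library. The chaperones Psmd10 (peak at 3.6 h) and Psmg1 (8.0 h) were also rhythmic in DF liver.

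For the mean level over the day in Alb-Cre liver, Psmb4 alone of the 31 subunits was called, 0.12 ± 0.03 higher in DF liver (log2 scale, adjusted p = 0.0021), with 486, 553 and 667 CPM in DF and 452, 519 and 581 CPM in AL liver; of all tested genes, 4.33% were higher and 3.54% lower. The fitted difference was above 0 for 19 of the 31, with a median of 0.02. The number called was 3 with DESeq2 or a transcript GC offset and 2 without the libraries set apart.

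In BLKO liver, where Bmal1 is targeted in hepatocytes, the fitted peaks under daytime feeding also gathered around the middle of the labelled day. The peaks of 23 of the 31 subunits lay between 11 and 17 h in BLKO DF liver (22% of all genes), and in BLKO AL liver no window of 6 h starting on a whole hour held more than 11 (8 to 14 h is one that did). Rhythm was called for 5 of the 31 subunits in BLKO DF liver (7.75% of all genes) and for 1, Psma7, in BLKO AL liver (6.96% of all genes). At an unadjusted p under 0.05 the numbers were 12 and 11. Psma7 did not pass without the libraries set apart (adjusted p = 0.072). Psmd1 peaked at 9.4 h (0.27 ± 0.05, adjusted p = 0.0041), Psmd2 at 11.1 h (0.34 ± 0.07, 0.0069), Psmc4 at 11.9 h (0.29 ± 0.06, 0.010), Psmd14 at 12.6 h (0.45 ± 0.14, 0.0499) and Psmb1 at 16.6 h (0.21 ± 0.05, 0.038) in BLKO DF liver. The count was 3 with no filter on low counts, and without single hours it was lowest, 2, without 22 h.

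The change in rhythm on daytime feeding was called in 5 of the 31 subunits in BLKO liver (16.1%), near the 15.2% of all genes. All 5 are regulatory particle genes: Psmd2, Psmc4, Psmc5, Psmd8 and Psmd13. The calls of Psmd8 and Psmd13 were lost without the libraries set apart (adjusted p = 0.27 and 0.16). Psmd8 had 468 and 350 CPM in the 2 of them in BLKO AL liver (0 h and 4 h, letter B), against a median of 242 CPM in that group. Psmd2 led, with 115 and 119 CPM at 10 h and 77.7 and 83.1 CPM at 22 h in BLKO DF liver, and 79.4 and 92.4 CPM at 12 h and 106 and 116 CPM at 2 h in BLKO AL liver (adjusted p = 0.00058). The highest hour of one regimen was thus close to the lowest of the other. Of the 13 genes called in Alb-Cre and the 5 called in BLKO liver, 3 were shared (Psmc4, Psmd2 and Psmd13), 23.1% and 60% of the lists. The same overlap among all tested genes was not counted, so nothing is read from these shares. No subunit was called for its mean level in BLKO liver (2.24% of all genes higher and 2.01% lower; 4 subunits at an unadjusted p under 0.05, and 0 or 1 in the alternatives), and 21 of 31 fitted differences were above 0.

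The effect of feeding on rhythm itself differed between the genotypes for 4 subunits in liver, Psmd11 (adjusted p = 0.0037), Psmd2 (0.0055), Psmb3 (0.041) and Psmd4 (0.043), and for the chaperone Psmg4 (0.049), where 7.29% of all genes were called. Without the libraries set apart Psmb3 (0.052) and Psmg4 (0.098) did not pass. Psmd11 in BLKO liver peaked at 15.4 h under DF and at 9.2 h under AL, with peak-to-trough differences of 0.19 and 0.30 that did not pass the test. Psmd4 was nearly flat there, with 0.02 in BLKO DF and 0.09 in BLKO AL liver. Between BLKO and Alb-Cre mice under AL feeding, the rhythm differed for Psmd11 (adjusted p = 0.0029), Psmc6 (0.030), Psma1 (0.044) and Psmb3 (0.047), where 4.95% of all genes were called; only 1 of these 4 calls was left without the libraries set apart. In fat and lung neither of these tests called any gene by edgeR (0% of all genes; at an unadjusted p under 0.05, 3 subunits in fat and 1 in lung for the genotypes and 0 in both for the interaction). The numbers of liver calls in these tests of differences between genotypes also fell to 1 or 2 without some single hours.

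The promoter of Psmc6, whose rhythm had the widest swing among liver subunits and whose mean rose in fat, is one of the 6 with TGACNNNGC, shown in capitals here as its reverse complement; it lies at chr14:45329574-45329873 on the plus strand and also holds CCGGAAG.
Psmc6: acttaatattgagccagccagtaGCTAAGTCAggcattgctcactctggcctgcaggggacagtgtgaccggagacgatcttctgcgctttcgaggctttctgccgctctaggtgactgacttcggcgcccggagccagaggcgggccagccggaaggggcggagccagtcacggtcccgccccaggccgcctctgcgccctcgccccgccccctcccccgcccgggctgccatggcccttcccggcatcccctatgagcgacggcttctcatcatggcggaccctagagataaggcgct

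**Figure D2:**
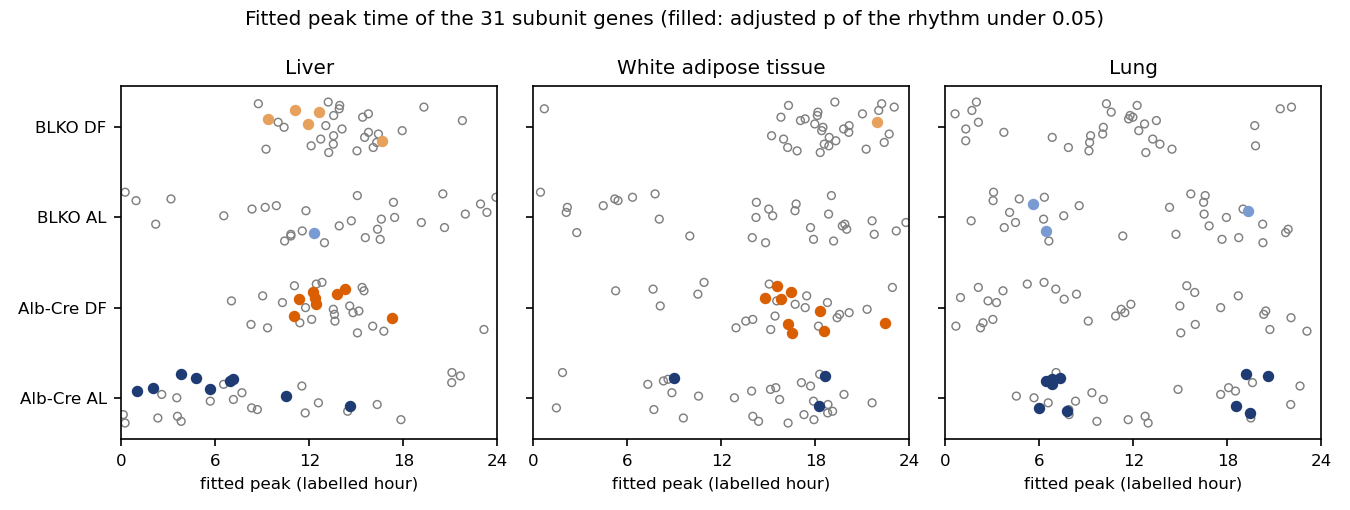
Fitted peak hour (horizontal axes) of the 31 subunit genes in each group of liver, white fat and lung; each circle is 1 gene, placed at an arbitrary height within its row, filled where the adjusted p of its rhythm was under 0.05. In both DF rows of liver 23 of 31 genes lie within 6 h, while the Alb-Cre AL row of lung has filled circles near 7 h and near 19 h.

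In white fat every subunit called for its mean level was higher in DF than in AL mice, in both genotypes. The rhythm of 1 subunit in each genotype was called as different. The regimen and a batch that the number in the sample titles might mark cannot be told apart. In BLKO mice 11 of the 31 subunits (35.5%) were higher in DF than in AL fat and 0 were lower, while 5.02% of all genes were higher and 5.39% lower. In Alb-Cre mice 6 of 31 (19.4%) were higher and 0 lower, against 4.89% and 4.91% of all genes. The fitted difference was above 0 for 26 of the 31 in BLKO fat (median 0.10) and for 25 in Alb-Cre fat (median 0.06), and the median of all genes lay within 0.011 of 0. In whole tissue, fewer cells of a type and less RNA per cell cannot be told apart. Leaving out any single hour kept both counts within 1.5 times of these values, and with 1 library per hour the BLKO count was 1 (letter B alone) or 5 (letter A alone) and the Alb-Cre count 0 with letter B alone.

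Psmd14, the deubiquitinase of the lid, had 70.0, 94.9 and 150 CPM (lowest, median, highest) in BLKO DF fat and 45.0, 81.0 and 113 CPM in BLKO AL fat. It was 0.34 ± 0.06 higher on the log2 scale in BLKO DF fat (adjusted p = 9.7e-05), and was called in all 22 alternatives. In Alb-Cre fat its median was 120 CPM under DF and 122 CPM under AL, and the feeding effect differed between the genotypes (0.40 ± 0.09, adjusted p = 0.0044; 3.6% of all genes). Psmd7, a lid subunit, was higher in both genotypes, with 159, 180 and 225 CPM in BLKO DF and 141, 156 and 189 CPM in BLKO AL fat (0.20 ± 0.04, adjusted p = 0.00042), and 96.2, 121 and 150 CPM in Alb-Cre DF and 90.7, 107 and 126 CPM in Alb-Cre AL fat (0.17 ± 0.04, adjusted p = 0.0037). The ranges overlap in all of these pairs, and the shift is one of the whole distribution.

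The largest folds were in 2 genes of low level. Psmc6 had 10.4, 23.7 and 49.0 CPM in BLKO DF fat and 12.8, 17.1 and 30.9 CPM in BLKO AL fat, a difference of 0.49 ± 0.11 (adjusted p = 0.0011). In Alb-Cre mice it had 9.10, 18.4 and 43.7 CPM in DF and 7.52, 12.4 and 24.7 CPM in AL fat, a difference of 0.53 ± 0.11 (adjusted p = 0.00048). Psma4, a subunit of the alpha ring, had 10.9, 16.6 and 35.8 CPM in Alb-Cre DF fat and 8.31, 11.8 and 20.6 CPM in Alb-Cre AL fat (0.47 ± 0.11, adjusted p = 0.0023). The lid subunit Psmd12 rose by 0.17 in BLKO and 0.18 in Alb-Cre fat. Psmc6, Psmd7 and Psmd12 are the 3 genes called in both genotypes, 27.3% of the BLKO and 50% of the Alb-Cre list. The overlap among all tested genes was not counted here either.

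Of the cutting subunits, Psmb7 (trypsin-like site) had 144, 173 and 216 CPM in BLKO DF fat and 134, 150 and 188 CPM in BLKO AL fat (0.21 ± 0.04, adjusted p = 0.00062). Psmb6 (caspase-like site) rose by 0.13 ± 0.03 in BLKO fat (adjusted p = 0.0058), with medians of 496 CPM under DF and 459 CPM under AL. Psmb5 (chymotrypsin-like site) was not called in either genotype (0.02 ± 0.06 in BLKO and 0.17 ± 0.06 in Alb-Cre fat, adjusted p = 0.90 and 0.068). The remaining BLKO calls were Psmc2, Psmc4, Psmd1, Psmb4 and Psmd6 (adjusted p = 0.068 without the libraries set apart), between 0.12 and 0.19, and the remaining Alb-Cre calls were Psmc1 (0.13) and Psmd4 (0.16). The core particle gave 3 of the 11 BLKO calls and 1 of the 6 Alb-Cre calls.

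Of the immunoproteasome and PA28 genes, Psmb8 and Psme2 were lower in BLKO DF fat and Psme1 in Alb-Cre DF fat. Psmb8 had 113, 169 and 225 CPM in BLKO DF fat and 150, 200 and 267 CPM in BLKO AL fat, a change of -0.24 ± 0.06 (adjusted p = 0.0059). Psmb9 (-0.18 ± 0.06) and Psmb10 (-0.12 ± 0.04) did not pass the test, both with an adjusted p of 0.056. In Alb-Cre fat none of the 3 passed by edgeR, and 1 had an unadjusted p under 0.05. The values there were -0.07 ± 0.06 for Psmb8, -0.08 ± 0.07 for Psmb9 and -0.09 ± 0.04 for Psmb10 (adjusted p = 0.51, 0.50 and 0.15). Psme1, the alpha subunit of PA28, had 147, 264 and 329 CPM in Alb-Cre DF fat and 256, 309 and 398 CPM in Alb-Cre AL fat, a change of -0.26 ± 0.04 (adjusted p = 1.4e-05), called in all 22 alternatives; in BLKO fat it did not pass (-0.03 ± 0.04, adjusted p = 0.77), and the effects differed between genotypes (0.24 ± 0.06, adjusted p = 0.017). Psme2, the beta subunit of PA28, fell by 0.16 ± 0.05 in BLKO fat (adjusted p = 0.043) and did not pass in Alb-Cre fat (-0.13 ± 0.05, adjusted p = 0.11). Of the activators of the nucleus, Psme3 (PA28 gamma) rose by 0.18 ± 0.04 in BLKO fat (adjusted p = 0.0013). In Alb-Cre fat its median was 78.7 CPM under DF and 77.2 CPM under AL. Psme4 (PA200) rose by 0.27 ± 0.08 in Alb-Cre fat (adjusted p = 0.028), and its median in BLKO fat was 18.6 CPM under DF and 18.1 CPM under AL.

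Some genes of antigen processing were also lower in DF fat. The summed leukocyte and macrophage markers had lower medians in DF fat, with overlapping ranges, and this difference was not tested. Of 10 genes of antigen processing, 5 were lower in BLKO DF fat (Tapbp -0.16, Irf1 -0.25, H2-K1 -0.22, Tap2 -0.19 and Tap1 -0.24), where 5.39% of all genes were lower. In Alb-Cre DF fat 3 were lower (Tapbp -0.18, H2-D1 -0.18 and H2-K1 -0.18), where 4.91% of all genes were. None was higher in either genotype. Tapbp, Tap1 and Tap2 load peptides onto the class I molecules H2-K1 and H2-D1, and Irf1 is a transcription factor of the interferon response. The summed CPM of 13 leukocyte markers had a median of 313 (230 to 472) in BLKO DF and 415 (320 to 618) in BLKO AL fat, and of 310 (263 to 1249) in Alb-Cre DF and 387 (266 to 565) in Alb-Cre AL fat, with 0 markers at 0. The summed CPM of 9 macrophage markers had medians of 1681 (1286 to 2505) and 1999 (1400 to 3446) in BLKO DF and AL fat, and of 1795 (1046 to 2853) and 2093 (1604 to 3153) in Alb-Cre DF and AL fat. Their part in the lower immunoproteasome values was not tested.

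Rhythm in fat was called for 9 of the 31 subunits in Alb-Cre DF mice (20.5% of all genes) and 3 in Alb-Cre AL mice (8.13% of all genes). For Psmd14 the DF libraries had 151 and 164 CPM at 16 h and 79.7 and 91.3 CPM at 2 h, and the AL libraries 135 and 175 CPM at 18 h and 102 and 103 CPM at 4 h. Its peak-to-trough difference was 0.64 ± 0.13 in Alb-Cre DF fat, with the peak at 16.5 h (adjusted p = 0.00045), and the alpha subunit gene Psma1 had the same swing and peak (0.64 ± 0.15, 16.5 h, 0.0041). The alpha subunit Psma3 had the widest fitted swing there (1.02 ± 0.43), with 8.44, 44.4 and 69.2 CPM in DF fat, and did not pass (adjusted p = 0.17). In Alb-Cre AL fat, Psmd4 peaked at 9.0 h, against Psmb4 at 18.2 h and Psmd6, a lid subunit, at 18.6 h. The difference in rhythm between the regimens was called only for Psmd4 among the 31 (adjusted p = 0.014; 11.4% of all genes), and in BLKO fat only for Psmd11 (0.037, and 0.16 without the libraries set apart; 8.97% of all genes). In BLKO fat, rhythm was called for 1 subunit under DF, Psmc5 (0.50 ± 0.11, peak at 21.9 h, adjusted p = 0.0034; 7.43% of all genes), with 12 at an unadjusted p under 0.05, and for 0 under AL by edgeR (4.09% of all genes; 1 at an unadjusted p under 0.05, and 0 in every alternative run). The fullest windows were 14 to 20 h in Alb-Cre fat, with 20 subunits under DF (26.3% of all genes) and 18 under AL (28.3%), and 17 to 23 h in BLKO DF fat, with 23 (25.5%). These counts were less stable than those of the means: the Alb-Cre DF count was 2 with only the 2 groups in the fit and 4 without 16 or 18 h, and the Alb-Cre AL count was 7 without the libraries set apart, 8 without 0 h and 1 without 12, 18 or 20 h.

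**Figure D3:**
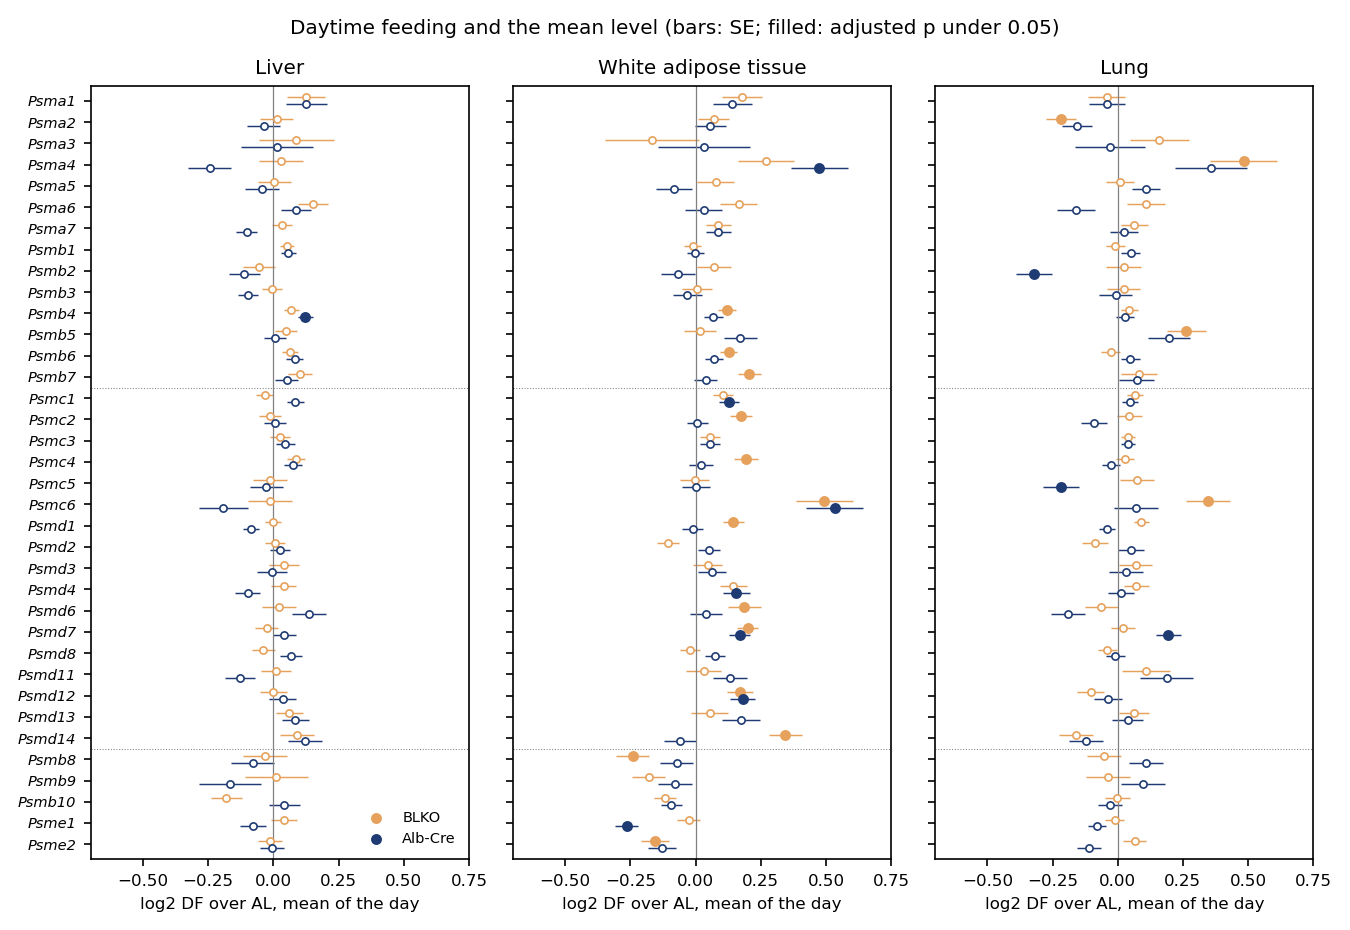
Difference in mean level over the day, DF over AL on the log2 scale (horizontal axes), for the 31 subunits, the immunoproteasome genes and PA28 in liver, white fat and lung of BLKO and Alb-Cre mice; bars are SE from 24 libraries a group and filled points passed an adjusted p of 0.05. In fat the filled points of the 31 subunits all lie right of 0, 11 in BLKO and 6 in Alb-Cre mice, while those of Psmb8, Psme1 and Psme2 lie left of it.

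In lung, rhythms of subunit genes were called under AL and not under DF. In Alb-Cre lung, rhythm was called for 0 of the 31 subunits under DF by edgeR (1.39% of all genes; also 0 at an unadjusted p under 0.05 and 0 in every alternative run) and for 10 under AL (15% of all genes). The genes called under AL fell into sets of opposite phase. Psmb1, Psmb3, Psmd2, Psmd3, Psmd4 and Psmd13 peaked between 6.0 and 7.8 h, and Psma7, Psmb4, Psmd6 and Psmd7 between 18.5 and 20.6 h. Psmd13 had 93.6, 151 and 170 CPM in Alb-Cre DF lung and 73.2, 146 and 182 CPM in Alb-Cre AL lung, with an AL swing of 0.58 ± 0.12 (adjusted p = 0.0030). Psmb4 had 360, 419 and 464 CPM under DF and 333, 399 and 516 CPM under AL, with an AL swing of 0.31 ± 0.06 (adjusted p = 0.0021). The AL count was 5 without the 1 lung library set apart (Alb-Cre AL, 20 h, letter B), 2 without both libraries of 20 h, 3 without 18 h, 5 without 4 h and 6 without 6 h.

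The peak hour went with base composition across all genes in liver, fat and lung, to a degree that varied between groups. In Alb-Cre AL liver the median transcript GC content was 53.3% for genes peaking at 6 to 12 h and 48.4% for those peaking at 18 to 24 h. In BLKO AL fat the medians of the same 6 h bins lay between 50.3% and 51.6%. In Alb-Cre AL lung the median transcript GC content was 53.7% for genes peaking at 6 to 12 h and 48.6% for those peaking at 18 to 24 h, and 51.1% and 47.9% for the subunits. With an offset for transcript GC in each library, 7 subunits were called in Alb-Cre AL lung instead of 10, and 1 instead of 3 in BLKO AL lung. In Alb-Cre liver the feeding difference in rhythm was called for 13 with the offset. The part of base composition in these rhythms was not tested further.

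In BLKO lung, rhythm was called for 0 subunits under DF by edgeR (1.07% of all genes; 1 at an unadjusted p under 0.05, and 0 in every alternative run) and for 3 under AL (12.7% of all genes): Psmb1 (0.35 ± 0.07, peak at 6.4 h, adjusted p = 0.0010), Psmd13 (0.40 ± 0.12, 5.6 h, 0.034) and Psmc6 (0.65 ± 0.17, 19.3 h, 0.049). The count was 1 without 2, 6, 8 or 16 h. The direct test of DF against AL rhythm called 1 of the 31 in Alb-Cre lung, Psmd7 (adjusted p = 0.049; 0.745% of all genes), lost in most alternatives, and 0 in BLKO lung by edgeR (1.87% of all genes; 3 at an unadjusted p under 0.05, and 0 in every alternative run). A rhythm called under AL and not under DF is therefore not shown to differ between them.

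Mean levels in lung moved in both directions. In BLKO lung, Psmc6 (0.35 ± 0.08, adjusted p = 0.0054), Psma4 (0.48 ± 0.13, 0.013) and Psmb5 (0.26 ± 0.07, 0.023) were higher and the alpha subunit Psma2 lower (-0.22 ± 0.06, 0.015) under DF, where 2.17% of all genes were higher and 2.44% lower. Psmb5 had 78.0, 103 and 140 CPM in BLKO DF lung and 67.2, 86.2 and 106 CPM in BLKO AL lung. In Alb-Cre lung, Psmd7 was higher (0.19 ± 0.05, adjusted p = 0.0046) and Psmb2, a structural beta subunit, lower (-0.32 ± 0.07, 0.0012), as was the ATPase Psmc5 (-0.22 ± 0.07, 0.033), where 4.34% of all genes were higher and 4.69% lower. Psmb2 had 24.6, 33.3 and 53.3 CPM in Alb-Cre DF and 21.5, 43.8 and 52.5 CPM in Alb-Cre AL lung. In BLKO lung it had 44.9, 54.3 and 66.9 CPM under DF and 36.5, 54.5 and 65.6 CPM under AL, and the feeding effects differed between genotypes for Psmb2 (0.34 ± 0.10, adjusted p = 0.019) and Psmc5 (0.29 ± 0.09, 0.049), where 5.72% of all genes were called. Without 20 h the Alb-Cre count was 5, and without 4 h the BLKO count was 1.

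Rhythm of immunoproteasome genes was called mainly in Alb-Cre AL mice, with peaks between 4.8 and 7.3 h in fat and lung and at 12.4 h in liver. In Alb-Cre fat, Psmb8 had 89.9, 143 and 160 CPM (lowest, median, highest) under DF and 95.1, 141 and 256 CPM under AL, and Psmb9 had 31, 40.3 and 50.7 CPM under DF and 30.9, 40.2 and 82.1 CPM under AL. Only the highest value of the AL group stands out in each pair. Under AL, Psmb8 swung by 0.56 ± 0.13 with a peak at 4.8 h (adjusted p = 0.0039) and Psmb9 by 0.57 ± 0.13 with a peak at 7.0 h (0.0040), and under DF neither passed (0.42 and 0.89). The difference in rhythm between the regimens was called for Psmb8 (adjusted p = 0.0040), Psmb10 (0.0080) and Psmb9 (0.040), all 3 of the group, where 11.4% of all genes were called. In DF fat Psmb10 had a peak at 11.9 h (0.33 ± 0.08, adjusted p = 0.0088).

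In Alb-Cre lung, Psmb8 (0.52 ± 0.13, peak at 7.3 h, adjusted p = 0.0086) and Psmb9 (0.67 ± 0.17, 5.9 h, 0.0080) were rhythmic under AL, and the tests of DF against AL rhythm did not pass (0.17 and 0.098). In Alb-Cre liver, Psmb10 was rhythmic under AL, with a peak at 12.4 h (0.45 ± 0.12, adjusted p = 0.014). In BLKO mice no rhythm of the 3 genes was called by edgeR in any tissue, and 1 had an unadjusted p under 0.05, that of Psmb10 in BLKO AL liver (unadjusted p = 0.029, adjusted p = 0.16). The test of rhythm between the genotypes under AL called 0 of all genes in fat and in lung. A genotype difference in these rhythms is therefore not shown in fat or lung. Daytime feeding changed none of their means in liver (Psmb10 in BLKO liver came nearest, -0.18 ± 0.06, adjusted p = 0.071) or lung.

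A single label stood out for these genes in every tissue. Whether its libraries of liver, fat and lung come from the same mouse is not given, so they may not be independent. The library of 6 h with letter B of the Alb-Cre AL group was the highest of 24 for Psmb8, Psmb9, Psmb10 and Psme1 in liver, fat and lung alike. In liver it had 245 CPM of Psmb8 and 128 CPM of Psmb9, against medians of 109 and 34.8 CPM in the other 23 libraries. In fat it had 256 and 82.1 CPM, against 140 and 39.6 CPM, and in lung 379 and 150 CPM, against 210 and 74.6 CPM. The other library of 6 h, letter A, had 94.4 and 34.6 CPM in liver. The letter B library was the highest of 24 for 8, 9 and 7 of 10 antigen processing genes in liver, fat and lung, for 8 of 9, 6 of 13 and 3 of 14 leukocyte markers, and for 10 of 10, 2 of 9 and 0 of 9 macrophage markers. Of the 31 subunits it was the highest for 1, 0 and 0, where 5.27%, 3.09% and 2.72% of all genes with a mean above 5 CPM were. In liver the macrophage markers summed to 1672 CPM in it, against a median of 337 CPM over the group.

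Without that library the fat rhythms stayed called, with adjusted p = 0.038 for Psmb8 and 0.048 for Psmb9, and the lung rhythms did not (0.062 for Psmb8 and 0.084 for Psmb9). The difference in rhythm between the regimens in fat stayed called for Psmb8 (0.017) and Psmb10 (0.0079) and was lost for Psmb9 (0.14). Psmb10 in liver remained rhythmic, with an adjusted p of 0.00055.

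**Figure D4:**
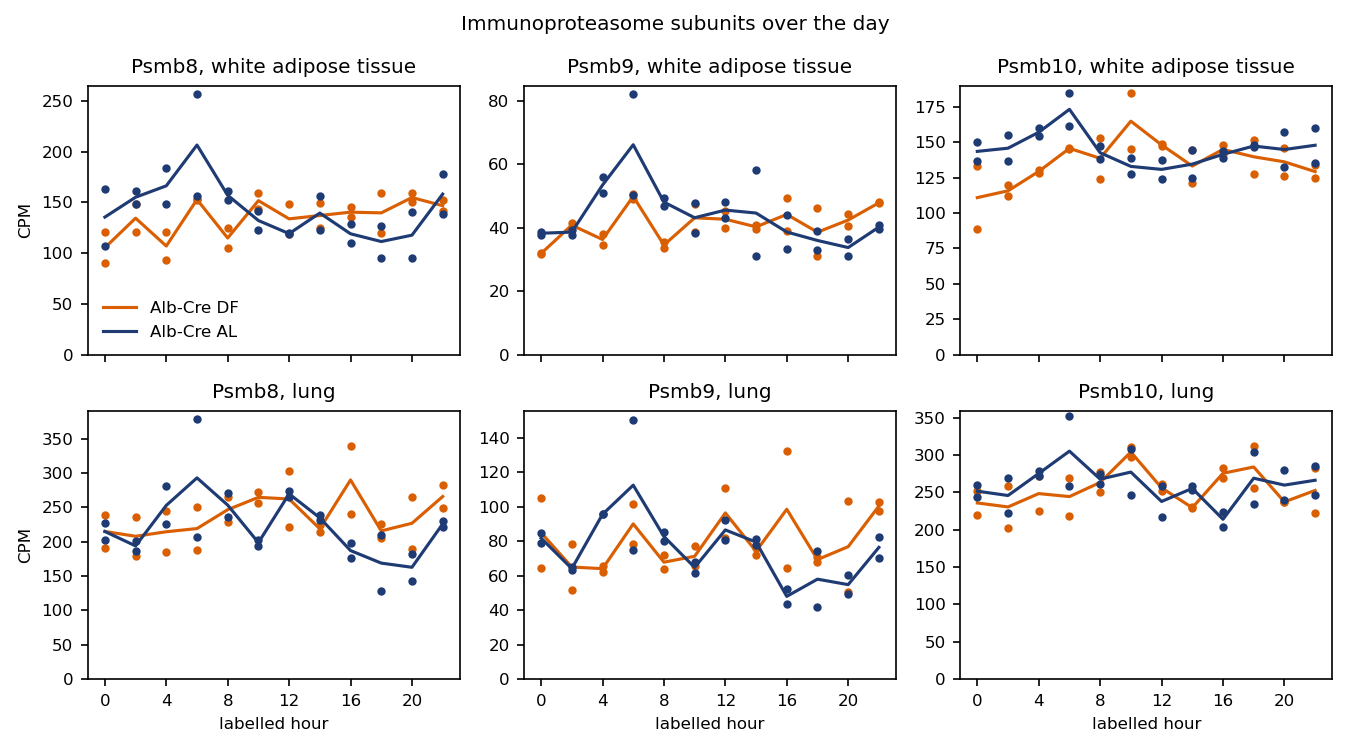
CPM of Psmb8, Psmb9 and Psmb10 (vertical axes, from 0) against the labelled hour in white fat (top row) and lung (bottom row) of Alb-Cre mice, daytime-fed (DF) and ad libitum (AL); points are libraries, 2 per hour, and lines their means. The highest AL point of each panel is the 6 h library with letter B, at 256 CPM of Psmb8 in fat and 379 CPM in lung.

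Other genes around the proteasome were read from lists. Of the genes that make or guide proteasomes but have other symbols, Pomp, the core assembly chaperone (adjusted p = 0.023), and Uchl5, a deubiquitinase of the regulatory particle (0.015), had a different rhythm under DF and AL in Alb-Cre liver, 2 of 7 tested, against 28.8% of all genes. Adrm1, a ubiquitin receptor, rose by 0.23 ± 0.07 in Alb-Cre fat and by 0.29 ± 0.08 in Alb-Cre lung, and Uchl5 by 0.25 ± 0.08 in BLKO fat. Nfe2l1 fell by 0.15 ± 0.05 in BLKO fat and rose by 0.13 ± 0.04 in Alb-Cre lung, each the only gene of its list of 6 called in that comparison. Among ubiquitin and shuttle genes, Rps27a, which encodes ubiquitin fused to a ribosomal protein, rose by 0.33 ± 0.08 in Alb-Cre fat, and the shuttle factor Ubqln1 by 0.14 ± 0.04. Of all genes, 4.89% were higher in Alb-Cre DF fat, 4.34% in Alb-Cre DF lung and 5.02% in BLKO DF fat. In BLKO DF fat 5.39% were lower. Nothing is read about the lists from these single genes. Of the interferon-stimulated genes, 5 of 12 were lower in Alb-Cre DF fat (4.91% of all genes) and 7 of 13 in Alb-Cre DF lung (4.69% of all genes), with 0 higher in either. In BLKO mice 1 was lower in each of these tissues, where 5.39% of all genes were lower in fat and 2.44% in lung. The Alb-Cre AL library of 6 h with letter B was the highest of its group for 7 of 13 listed interferon-stimulated genes in fat. In lung it was the highest for 4 of 14. Of all genes with a mean above 5 CPM it was the highest for 3.09% in fat and 2.72% in lung. Its part in the lower values of the Alb-Cre DF groups was not tested. The inhibitor Psmf1 was called in no comparison of feeding or rhythm; in liver its median was 9.87 CPM under DF and 9.17 CPM under AL in Alb-Cre mice.

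Rhythms were also compared between tissues, on differences between equally labelled libraries (group, hour and letter). Liver differed from lung for 5 of the 31 subunits in Alb-Cre DF mice (14.7% of all genes), 7 in Alb-Cre AL mice (10.6%), 1 in BLKO DF mice (2.52%) and 2 in BLKO AL mice (5.98%). Liver differed from fat for 6 (18.1%), 6 (5.97%), 5 (5.16%) and 3 (5.02%) in the same order of groups. Fat differed from lung for 0 (6.29%), 1 (0.775%), 0 (2.85%) and 1 (3.04%). The 24 h difference of Psmd11 between liver and fat in Alb-Cre AL mice had a peak-to-trough value of 0.82 (adjusted p = 0.0056), and that of Psmd2 in BLKO DF mice one of 0.56 (adjusted p = 0.00027; limma). An alternative used edgeR and no matching of libraries, which changes both the test and the pairing. In that order of groups, 2 (9.7% of all genes), 4 (7.3%), 0 (1.66%) and 2 (3.43%) subunits differed between liver and lung. Between liver and fat 2 (15.6%), 2 (4.45%), 2 (3.63%) and 0 (3.09%) differed.

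Between BLKO and Alb-Cre mice under AL feeding, the mean differed for 25 of the 31 subunits in liver (59.4% of all genes), 23 in fat (62.6%) and 25 in lung (65.9%). The genotypes were counted in separate tables, so the genotype and the making of the table cannot be told apart, and nothing is read from these counts.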

How the data were processed

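The data are bulk RNA-seq of 288 libraries in 6 deposited tables, 1 for each tissue and genotype, with raw counts as deposited for every gene and, beside them, a signal headed as normalized in the deposited tables, which was left aside. Per the submitters' processing notes, bcl2fastq, cutadapt, STAR, HTSeq and DESeq2 were used, with mm10; no version or annotation is given there. Sample titles gave the match to columns and, with the other labels, the groups and the letters A and B. A further number in the titles is unique to each genotype and regimen, so a batch it might mark and the group cannot be told apart.

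Genes listed in both tables of a tissue were joined (10848 in liver, 13623 in fat, 14044 in lung), and 9009, 11065 and 11949 passed filterByExpr. In R 4.3.3, edgeR 4.0.16 gave quasi-likelihood F tests (with limma 3.58.1 beside it), 1 fit of 96 libraries per tissue with TMM scaling, and a mean, cosine and sine of 24 h per group (84 residual degrees of freedom). Rhythm was tested on cosine and sine together, and p-values were adjusted by Benjamini-Hochberg over all genes of the fit, with a threshold of 0.05. Levels are CPM of TMM-scaled libraries, and peak-to-trough values and peak hours come from least squares fits on the log2 CPM scale (prior count 2). Tissue differences in rhythm used limma on log2 CPM differences of libraries with the same label. Simulated counts with known changes were used to test the scripts.

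The members and lists were chosen with earlier results of these data known. Named genes are Psmb5 to Psmb10, Psme1 and Psme2, up to 10 members of lowest p per comparison (5 for differences between genotypes and tissues), the widest and narrowest swings, members against the rest, and up to 4 genes per pathway list. Alternatives were DESeq2 1.42.0, its size factors, no filter on low counts, a replicate block, only the compared groups in the fit, and leaving out each hour or letter. Chosen after seeing the data were leaving out 8 libraries set apart (7 by a correlation more than 0.03 below their group, 1 by its markers), leaving out the Alb-Cre AL library of 6 h with letter B, and a transcript GC offset. GENCODE M21 lists 4 pseudogenes of the family, whose parents' reads may be shared. A result of the ubiquitin and shuttle list is not reported here.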

Additional observations from a re-analysis of the deposited data

Results flagged for a closer look

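The effect of daytime feeding on rhythm in liver differed between BLKO and Alb-Cre mice by the interaction test of the fit for 5 genes of the family: Psmd11 (adjusted p = 0.0037), Psmd2 (0.00553), Psmb3 (0.0405), Psmd4 (0.0426) and Psmg4 (0.0487). Psmd11 and Psmd4 had their larger feeding difference in Alb-Cre liver, and Psmd2 was called in both genotypes with different hours. Psmb3 peaked at 17.3 h in Alb-Cre DF and 8.3 h in Alb-Cre AL liver. Psmg4 had a rhythm in BLKO AL liver with a peak at 0.2 h (adjusted p = 0.039).

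The effect of daytime feeding on the mean level in fat differed between BLKO and Alb-Cre mice for Psmd14 (0.40 on the log2 scale, BLKO minus Alb-Cre), Psme1 (0.24), Psmg4 (-0.25) and Psme2b (-0.95). For Psme2b, 3 libraries of BLKO AL fat, all of letter B, had 83.2 CPM (10 h), 81.7 CPM (18 h) and 48.3 CPM (0 h), against a group median of 9.74 CPM, and its difference was -0.29 with letter A alone. Without the libraries set apart Psme2b (adjusted p = 0.11) and Psmg4 (0.072) did not pass. In lung the difference passed for Psmb2 (0.34) and Psmc5 (0.29).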

How the results depend on the processing

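Counts are of the 31 subunits called. For single genes called in the main fit, 2237 alternative values kept the call and 810 lost it. Of these values, 0 changed direction, which was checked for mean levels only. Changes in the peak hour of a rhythm were not checked. The Alb-Cre liver feeding rhythm gave 12 or 13 calls in every alternative that kept all hours and both letters, 13 with the replicate block. Within a tissue, libraries with the same hour and letter in 2 groups had median correlations of deviations of -0.06 to 0.15. The equally labelled library was the closest of the other group for 0 to 4 of 24. What such libraries share beyond the label was not tested. Between 2 tissues, libraries of the same group, hour and letter had medians of 0.10 (liver and fat), 0.11 (liver and lung) and 0.08 (fat and lung). The equally labelled library was the closest of its group for 57, 67 and 56 of 96. Under the replicate block the lung Alb-Cre feeding rhythm had 0 calls and no other count moved by over 1.5 times. Depth limits the genes of few counts, such as Psmc6, Psma4 and Psmd9. The cause of the moves below was not tested, except that leaving out a letter leaves 1 library per group and hour.

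Leaving out 1 hour or 1 letter gave, for rhythm in Alb-Cre DF, Alb-Cre AL, BLKO DF and BLKO AL, 0 to 8, 1 to 11, 0 to 7 and 0 to 2 calls in liver, 1 to 11, 0 to 8, 0 to 2 and 0 to 0 in fat, and 0 to 0, 0 to 11, 0 to 0 and 0 to 3 in lung. For the feeding difference in rhythm in BLKO and in Alb-Cre mice it gave 0 to 5 and 1 to 14 in liver, 0 to 2 and 0 to 1 in fat, and 0 to 0 and 0 to 1 in lung. For the feeding difference in mean it gave 0 to 1 and 0 to 3 in liver, 1 to 12 and 0 to 7 in fat, and 0 to 4 and 0 to 5 in lung. The interaction of means gave 0 to 0 in liver, 0 to 1 in fat and 0 to 2 in lung, the interaction of rhythm 0 to 4, 0 to 0 and 0 to 0, the genotype difference in rhythm 0 to 6, 0 to 0 and 0 to 0, and that in mean 18 to 26, 20 to 24 and 22 to 26.

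DESeq2 moved the liver Alb-Cre feeding mean to 3 and fat BLKO DF rhythm to 2, and its size factors in edgeR the lung Alb-Cre feeding rhythm to 0 and interaction of means to 1. With no filter on low counts, liver BLKO DF rhythm had 3 calls, lung Alb-Cre feeding rhythm 0, lung interaction of means 1, and the tissue differences in BLKO DF mice 0 for liver minus lung and 3 for liver minus fat. With only the compared groups, liver BLKO AL rhythm had 0, liver Alb-Cre feeding mean 2, fat Alb-Cre DF rhythm 2, fat BLKO DF rhythm 2, fat BLKO feeding rhythm 2, lung Alb-Cre AL rhythm 5 and lung Alb-Cre feeding rhythm 0. Without the libraries set apart, liver BLKO AL rhythm had 0, liver Alb-Cre feeding mean 2, liver genotype rhythm 1, fat Alb-Cre AL rhythm 7, fat BLKO DF rhythm 4, fat BLKO feeding rhythm 0 and lung Alb-Cre AL rhythm 5. With the GC offset, liver BLKO AL rhythm had 2, liver Alb-Cre feeding mean 3, liver genotype rhythm 2, fat BLKO DF rhythm 2, fat BLKO feeding rhythm 2, lung BLKO AL rhythm 1 and lung Alb-Cre feeding rhythm 0. Without the 6 h letter B library of Alb-Cre AL, liver genotype rhythm had 2, lung Alb-Cre feeding rhythm 0 and lung interaction of means 1. With no replicate block and edgeR, liver minus lung had 2, 4 and 0 calls in Alb-Cre DF, Alb-Cre AL and BLKO DF mice, liver minus fat 2, 2, 2 and 0 in Alb-Cre DF, Alb-Cre AL, BLKO DF and BLKO AL mice, and fat minus lung 0 in Alb-Cre AL mice.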
